A study of Mus musculus with 6 samples.

Results

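The TNF superfamily genes described here are 4 ligands (*Tnf*, *Tnfsf9*, *Tnfsf12* and *Tnfsf13b*) and 4 receptors (*Tnfrsf1a*, *Tnfrsf1b*, *Tnfrsf11a* and *Tnfrsf21*). They were chosen by symbol from the deposited count table, and all 8 were found among its 19309 genes. RNA was sequenced from macrophages grown out of mouse bone marrow and polarized to the M2c state, with 3 libraries from sEH-/- and 3 from wild-type animals. The sEH-/- mice lack the soluble epoxide hydrolase encoded by *Ephx2*. Bone marrow came from mice aged 8 to 10 weeks. The study compared littermates and worked mainly with cells from females, and the labels do not state sex for each library. The deletion is constitutive and present in every tissue. Cells of both genotypes were grown with the colony-stimulating factors M-CSF and GM-CSF over 7 days, then exposed to LPS and IFN-γ (24 h in the sample labels, 12 h in the methods) and then to TGF-β1 (48 h in the labels, 24 or 48 h in the methods). All 6 libraries therefore carry the same cytokine history, and the comparison addresses how gene expression after repolarization with TGF-β1 differs between cells with and without sEH. The labels do not say whether the replicates were processed on separate days, so that p-values measure the spread between these libraries.

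Ligands of the TNF superfamily are made as trimeric, mostly membrane-bound proteins, and several are released by proteolytic cleavage. Their receptors recruit TRAF adaptors to activate NF-κB and MAP kinases, and those with a cytoplasmic death domain can also start apoptosis or necroptosis. In macrophages, TNF is a main product of LPS stimulation, whereas BAFF (the product of *Tnfsf13b*) supports B cells and is known to be induced by interferons.

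Library totals lay between 4400197 and 6096440 counts. *Ephx2* was counted 4, 2 and 1 times in sEH-/- and 26, 49 and 57 times in wild-type libraries, which fits the genotype labels. Macrophage markers were abundant, with a summed level of the 8 markers between 1980 and 2460 CPM (TMM-normalized counts, scaled to a common library total) in sEH-/- and between 1740 and 2200 CPM in wild-type libraries. All 8 had log2 fold changes (sEH-/- over wild-type) above 0, with a median of 0.21, and none was called. The largest was that of *Cd14*, at 0.50 (adjusted p = 0.029 from edgeR). In 2 of the 8, all sEH-/- libraries lay above all wild-type libraries. Of 6 neutrophil markers analysed, *S100a8* had up to 147 counts and the others at most 10, and their summed level was 28.2 to 31.9 CPM in sEH-/- and 17.4 to 21.2 CPM in wild-type libraries. The 6 dendritic cell markers analysed summed to 27.5 to 58.4 CPM in sEH-/- and 42.2 to 59.4 CPM in wild-type libraries, and *Cd209a* was at 0. The 7 stromal or endothelial markers analysed summed to 15.8 to 31.7 CPM in sEH-/- and 12.3 to 60.5 CPM in wild-type libraries, with none called. Of the 6 tested, 4 had log2 fold changes (sEH-/- over wild-type) above 0 and 2 below 0, with a median of 0.52. One of the 2 below 0, *Col1a2*, was counted 8, 171 and 58 times in wild-type cells and 11, 30 and 7 times in sEH-/- cells, so that wild-type replicates 2 and 3 were highest. The part of these markers in the results was not tested. In bulk RNA, fewer cells of a type and less RNA per cell cannot be told apart.

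Among the 8 genes, *Tnfsf13b* was higher in sEH-/- macrophages and the other 7 were not called. A gene was called at a Benjamini-Hochberg adjusted p below 0.05 in edgeR's quasi-likelihood test, together with a change of more than 1.5-fold in either direction. In this comparison 2.61% of the 13785 tested genes were called in either direction and 1.51% were called higher, against 1 of the 8. All 8 genes had enough counts to be tested. Of the 8 log2 fold changes (sEH-/- over wild-type), 7 were above 0 and 1 was below 0, with a median of 0.12. Over all tested genes, 49.8% were above 0.

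**Figure D1:**
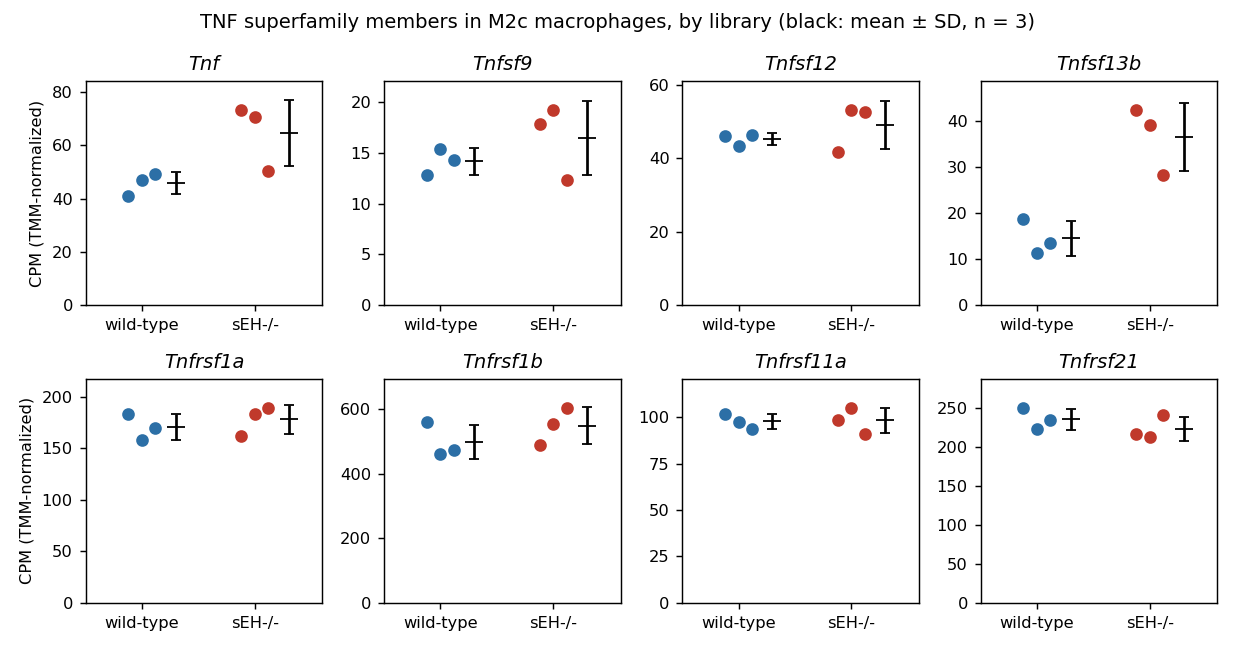
Each panel plots TMM-normalized CPM of a TNF superfamily gene in the 3 wild-type (blue) and 3 sEH-/- (red) libraries, with the mean ± SD in black and each vertical axis starting at 0. *Tnfsf13b* lies between 28.3 and 42.3 CPM in sEH-/- and between 11.4 and 18.7 CPM in wild-type libraries, *Tnf* is separated by a narrow gap, and the genotypes overlap in the other 6 genes.

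*Tnfsf13b* encodes BAFF, a survival factor for B cells, and lies on the plus strand of mm10 chromosome 8 (chr8:10006467-10039072). Its level was 42.3, 39.1 and 28.3 CPM in sEH-/- cells, from 247, 194 and 122 counts. It was 18.7, 11.4 and 13.4 CPM in wild-type cells, from 85, 70 and 75 counts. The lowest sEH-/- library lay above the highest wild-type library, although the counts in the wild-type libraries came from totals similar to those of the sEH-/- libraries. The sEH-/- mean was 36.6 ± 7.33 CPM and the wild-type mean 14.5 ± 3.78 CPM (SD, n = 3 each). On the log2 scale the difference was 1.36 with an SE of 0.20 (edgeR, adjusted p = 0.014), or 2.57-fold, with a 95% interval from 1.88-fold to 3.51-fold that is not adjusted for the number of genes. Leaving out single libraries gave log2 fold changes between 1.20 and 1.57. Without wild-type replicate 2 the adjusted p was 0.071 and without wild-type replicate 3 it was 0.11, so that the call depended on both of these libraries. The same held for most called genes, since these 2 fits called 25 and 6 of all tested genes, against 360 with all libraries.

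The sequence before the 2 RefSeq starts of *Tnfsf13b* (build GRCm38.p6, which is mm10) is shown because this was the called gene of the 8. Searched on both strands were an interferon-stimulated response element, spelled GAAA, any 2 bases and GAAA again, a STAT-type element, spelled TTCNNNGAA, and the κB motif in its usual degenerate form. Capitals mark a match. The 250 bases before the upstream start (chr8:10006217-10006466, plus strand) held none of these letters. The 30 bases before the downstream start (chr8:10006603-10006632, plus strand) held the interferon-type motif, and so did the 30 bases before the start of *Tnfrsf1b* (chr4:145246871-145246900, minus strand), a gene that was not called and is shown for contrast.
Tnfsf13b upstream start: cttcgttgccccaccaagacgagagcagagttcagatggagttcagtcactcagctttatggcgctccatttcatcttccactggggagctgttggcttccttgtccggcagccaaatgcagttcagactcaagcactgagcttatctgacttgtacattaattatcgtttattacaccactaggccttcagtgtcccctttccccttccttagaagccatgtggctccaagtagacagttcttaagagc
Tnfsf13b downstream start: atcttacaaaaactGAAAGTGAAAtgcgga
Tnfrsf1b start: cctagctcctggcctgagggTTTCGCTTTC
In windows of 250 bases before a start, the interferon-type motif was found in 2.98% of the 32851 RefSeq windows, the STAT-type motif in 7.02% and the κB motif in 3.90%. Of the 8 genes, 6 had a window, and *Tnfsf9* and *Tnfsf12* had none. The κB motif was found in none of their 7 windows, and the STAT-type motif was found in those of *Tnfrsf1a* and *Tnfrsf1b*. A match describes letters in a window and does not show binding. A window without a match does not exclude sites farther away or spelled differently, which were not searched.

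*Tnf*, the founding ligand of the family and a product of LPS-stimulated macrophages, lies on the minus strand of chromosome 17 (chr17:35199381-35202007). The sEH-/- libraries held 73.1, 70.4 and 50.3 CPM and the wild-type libraries 41.1, 46.9 and 49.3 CPM. All 3 sEH-/- libraries lay above all 3 wild-type libraries, but the gap between sEH-/- replicate 3 and wild-type replicate 3 was small. The log2 fold change was 0.50 with a 95% interval from 0.20 to 0.80, and the gene was not called (adjusted p = 0.064 from edgeR). With DESeq2 the adjusted p was 0.031 at a log2 fold change of 0.51, which is under the fold threshold. *Tnf* was called without sEH-/- replicate 3 (log2 fold change 0.65, adjusted p = 0.012). The 2.28-fold spread of *Tnf* counts over the 6 libraries, from 187 to 427, was wider than the 1.39-fold spread of library totals.

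*Tnfsf9* encodes 4-1BB ligand, a costimulatory ligand for T cells (chr17:57105325-57107757, plus strand). Its level was 17.8, 19.2 and 12.3 CPM in sEH-/- and 12.8, 15.4 and 14.3 CPM in wild-type libraries. The lowest value of all was in a sEH-/- library, and the genotypes overlapped. The log2 fold change was 0.22, with an interval from −0.21 to 0.64 (adjusted p = 0.55 from edgeR) that includes the fold threshold. With 53 to 104 counts per library, *Tnfsf9* had the fewest counts of the 8 genes on average, and its CPM had a coefficient of variation of 22.2% among the sEH-/- libraries.

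*Tnfsf12* encodes TWEAK, the ligand of the receptor Fn14 (chr11:69686250-69695849, minus strand). It had 41.6, 53.1 and 52.6 CPM in sEH-/- and 46.2, 43.5 and 46.4 CPM in wild-type libraries. The wild-type libraries lay close together and inside the range of the sEH-/- libraries. The log2 fold change was 0.11, with an interval from −0.13 to 0.35 (adjusted p = 0.60 from edgeR). In the GENCODE annotation 48.3% of its exonic bases are shared on the same strand with the readthrough gene *Tnfsfm13*, and since reads over several genes were not counted, the counts of *Tnfsf12* come from the rest of the gene.

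*Tnfrsf1a* encodes TNFR1, the death domain receptor of TNF (chr6:125349362-125362484, plus strand). Its level was 162, 183 and 189 CPM in sEH-/- and 183, 158 and 170 CPM in wild-type libraries. *Tnfrsf1b* encodes TNFR2, the receptor of TNF that lacks a death domain (chr4:145213463-145246870, minus strand), and had 489, 553 and 604 CPM in sEH-/- and 560, 461 and 475 CPM in wild-type libraries. In both genes the genotypes overlapped. The log2 fold change was 0.06 for *Tnfrsf1a*, with an interval from −0.12 to 0.25 (adjusted p = 0.71 from edgeR). For *Tnfrsf1b* it was 0.14, with an interval from −0.10 to 0.38 (adjusted p = 0.50). Both intervals lie inside the fold threshold. Within a library, *Tnfrsf1b* counts were 3.02, 3.03 and 3.20 times those of *Tnfrsf1a* in sEH-/- and 3.06, 2.92 and 2.79 times in wild-type cells. The mean ratio was 3.08 ± 0.103 (SD, n = 3) and 2.93 ± 0.137 (SD, n = 3), respectively, with a 2-sided exact permutation p of 0.30, where 3 libraries against 3 cannot give less than 0.10.

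The CPM of both receptors tended to fall as the library total rose. *Tnfrsf1b* carried 0.709 counts per exonic base on average and *Tnfrsf1a* 0.348, in a table from which duplicate reads were removed. *Tnfrsf1b* counts ranged only from 2547 to 2856, a 1.12-fold spread, and its CPM was highest in sEH-/- replicate 3 and lowest in wild-type replicate 2, the libraries with the smallest and the largest total. With the library total as a covariate the log2 fold change of *Tnfrsf1b* was 0.07, and after a correction for saturation, which assumes at most 1 count for each exonic base, it was 0.17. For *Tnfsf13b*, at 0.0192 counts per exonic base, the same fits gave 1.37 and 1.38, and for *Tnf*, at 0.177, they gave 0.57 and 0.55.

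**Figure D2:**
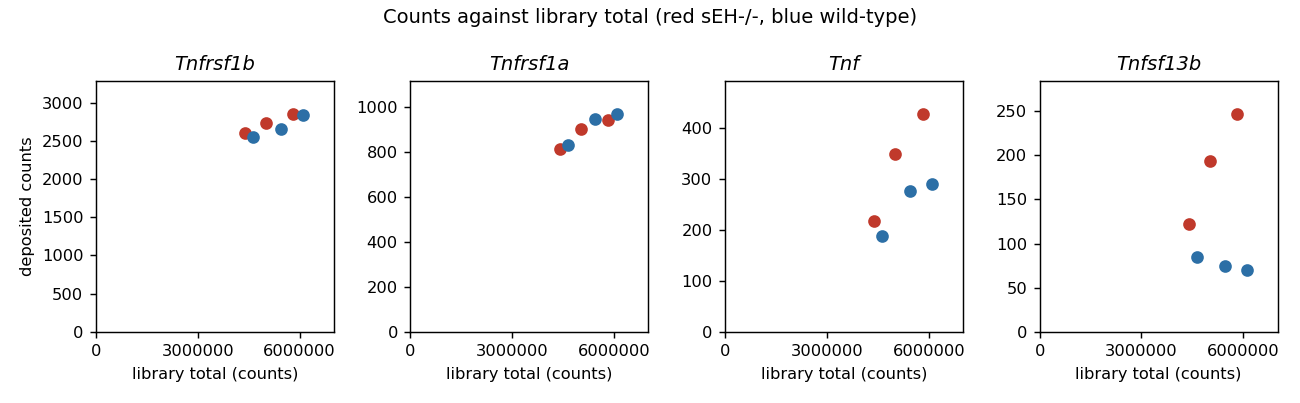
Deposited counts of 4 genes (vertical axes, from 0) are plotted against the library total (horizontal axis, in counts), with 1 point per library in red (sEH-/-) or blue (wild-type). *Tnfrsf1b* counts stay between 2547 and 2856 and *Tnfrsf1a* counts between 813 and 972 at every total, whereas *Tnfsf13b* counts are higher in each sEH-/- library than in any wild-type library.

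*Tnfrsf11a* encodes RANK, the receptor of RANKL that drives osteoclast formation from myeloid cells (chr1:105780718-105847981, plus strand). Its level was 98.7, 105 and 91.1 CPM in sEH-/- and 102, 97.7 and 93.9 CPM in wild-type libraries. The means, 98.3 ± 7.01 and 97.8 ± 3.93 CPM (SD, n = 3 each), differed by less than either SD. The log2 fold change was 0.01, with an interval from −0.16 to 0.18 (adjusted p = 0.95 from edgeR), and its sign changed with the normalization. *Tnfrsf21* encodes DR6, a death domain receptor of the family (chr17:43016555-43089189, plus strand), and had 216, 213 and 241 CPM in sEH-/- and 250, 223 and 234 CPM in wild-type libraries. It was the gene of the 8 with a log2 fold change below 0, at −0.08 with an interval from −0.25 to 0.10 (adjusted p = 0.61). The genotypes overlapped in both receptors, and both intervals lie inside the fold threshold.

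Scaled to exonic length, the receptors of TNF were the most abundant of the 8 transcripts. In wild-type cells the level in CPM per kilobase of exon was 131 ± 14.0 for *Tnfrsf1b*, 65.7 ± 4.82 for *Tnfrsf1a* and 57.3 ± 3.32 for *Tnfrsf21* (SD, n = 3 each). On this scale, in wild-type cells, *Tnfrsf1b* lay above 99.9% of the tested genes. Since it carried 0.709 counts per exonic base with duplicate reads removed, its level, its rank and its ratio to *Tnfrsf1a* may be affected by saturation. The macrophage markers with the most counts per exonic base, *Cd68* (0.886) and *Lyz2* (0.881), had counts that spread only 1.07-fold and 1.02-fold over the 6 libraries. The correction for saturation was applied to fold changes only, and the part of saturation in the levels and the ratio was not tested. *Tnfsf12*, at 29.9 ± 1.08, and *Tnf*, at 27.9 ± 2.57, overlapped in their ranges, whereas every other neighbouring pair in the order was separated, *Tnfrsf1a* and *Tnfrsf21* only just (lowest 60.9 against highest 60.8). Counted over the exonic bases it does not share, *Tnfsf12* was at 57.9 CPM per kilobase, close to *Tnfrsf21*. The lowest levels were those of *Tnfrsf11a* (16.3 ± 0.657), *Tnfsf9* (11.0 ± 1.04) and *Tnfsf13b* (2.11 ± 0.55). In sEH-/- cells *Tnfsf13b* reached 5.32 ± 1.07 CPM per kilobase and was still the lowest of the 8. The union of all annotated exons was used, so that genes with long, rarely used exons have lower values.

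*Tnfsf13b* and *Tnf* were the genes of the 8 in which the genotypes did not overlap, in both with the sEH-/- libraries above. All sEH-/- libraries lay above all wild-type libraries in 11.8% of the tested genes, and the genotypes were separated in either direction in 26.3%. In both genes sEH-/- replicate 3 was the lowest of its genotype, and the order of the wild-type libraries was not the same, with replicate 1 highest for *Tnfsf13b* and lowest for *Tnf*. The CPM of *Tnfsf13b* and *Tnf* varied with a coefficient of variation of 20.1% and 19.3% among the sEH-/- libraries, against 22.2% for *Tnfsf9*, 13.3% for *Tnfsf12* and 6.91% to 10.5% for the 4 receptors.

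The genes whose profile over the 6 libraries was closest to that of *Tnfsf13b* were *Pde4b*, a cAMP phosphodiesterase, *Fpr1*, a formyl peptide receptor, and *Ptger1*, a receptor of prostaglandin E. Likeness was the root-mean-square difference of mean-centred log2 CPM, which was 0.14, 0.15 and 0.16, respectively, among the 10269 genes that averaged 50 counts or more. Their own log2 fold changes were 1.55, 1.35 and 1.37. As these were picked from all genes for their likeness over 6 libraries, they are a description.

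Of the receptors of BAFF, looked up after the value of *Tnfsf13b* had been seen, 1 had enough counts to be tested, and it was not called. *Tnfrsf13b*, which encodes TACI, had 75.4, 52.3 and 55.2 CPM in sEH-/- and 61.6, 49.0 and 62.4 CPM in wild-type libraries, which overlap (log2 fold change 0.09, interval −0.23 to 0.42, adjusted p = 0.75 from edgeR). *Tnfrsf17*, which encodes BCMA, had 0 counts in every library, and *Tnfrsf13c* was not analysed here. *Tnfsf13*, which encodes the related ligand APRIL, had a log2 fold change of 0.07 (interval −0.44 to 0.58, adjusted p = 0.89).

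Of 38 other ligands and receptors of the superfamily, 22 could be tested, 8 had too few counts and 8 were not analysed here. Of the 22, none was called higher and 2 were called lower, where 1.10% of all tested genes were called lower. Both are death receptors or related receptors known as p53 targets. *Tnfrsf10b*, the mouse TRAIL receptor, had 20.0, 8.68 and 17.6 CPM in sEH-/- and 28.4, 45.8 and 42.3 CPM in wild-type libraries, which is −1.33 on the log2 scale (SE 0.26, edgeR adjusted p = 0.029). *Eda2r*, the receptor of ectodysplasin A2, had 14.9, 4.24 and 7.42 CPM in sEH-/- and 25.1, 59.9 and 39.8 CPM in wild-type libraries, which is −2.20 on the log2 scale (SE 0.39, adjusted p = 0.022). In both genes every sEH-/- library lay below every wild-type library. Both lost the call without sEH-/- replicate 2 (adjusted p = 0.053 for each), without wild-type replicate 2 (0.15 for *Tnfrsf10b* and 0.10 for *Eda2r*) and without wild-type replicate 3 (0.14 and 0.12). *Tnfrsf10b* also lost it when the library total entered the fit (0.055). Without sEH-/- replicate 1, *Eda2r* had a log2 fold change of −2.87. Like *Col1a2*, both genes were highest in wild-type replicates 2 and 3. Among the sEH-/- libraries, *Col1a2* was highest in replicate 2 (6.05 CPM), where both genes were lowest. Of the 6 stromal or endothelial markers tested, 4 had log2 fold changes above 0 and 2, with *Col1a2* among these 2, below 0. The part of stromal cells in these values was not tested.

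Of the 16 other receptors tested, 14 had a log2 fold change below 0, with a median of −0.29, and in 8 all sEH-/- libraries lay below all wild-type libraries, where 14.5% of all tested genes did. The most abundant, *Tnfrsf26* and *Tnfrsf23*, decoy-type receptors without a death domain, had log2 fold changes of −0.26 (interval −0.43 to −0.09, adjusted p = 0.081 from edgeR) and −0.27 (interval −0.50 to −0.05, adjusted p = 0.13) and were not called. Of the 6 other ligands tested, 4 had values above 0 and 2 below 0, with a median of 0.32. The most abundant of them were *Tnfsf10*, which encodes the interferon-inducible ligand TRAIL, and *Tnfsf8*, which encodes CD30 ligand. *Tnfsf10* had 39.7, 29.1 and 22.7 CPM in sEH-/- and 22.9, 10.7 and 14.5 CPM in wild-type libraries, with a narrow overlap (log2 fold change 0.97, interval 0.37 to 1.56, adjusted p = 0.067). *Tnfsf8* had a log2 fold change of 0.73 (interval 0.27 to 1.19, adjusted p = 0.070). Neither was called in edgeR, and both were called with DESeq2 (adjusted p = 0.0098 and 0.047).

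**Figure D3:**
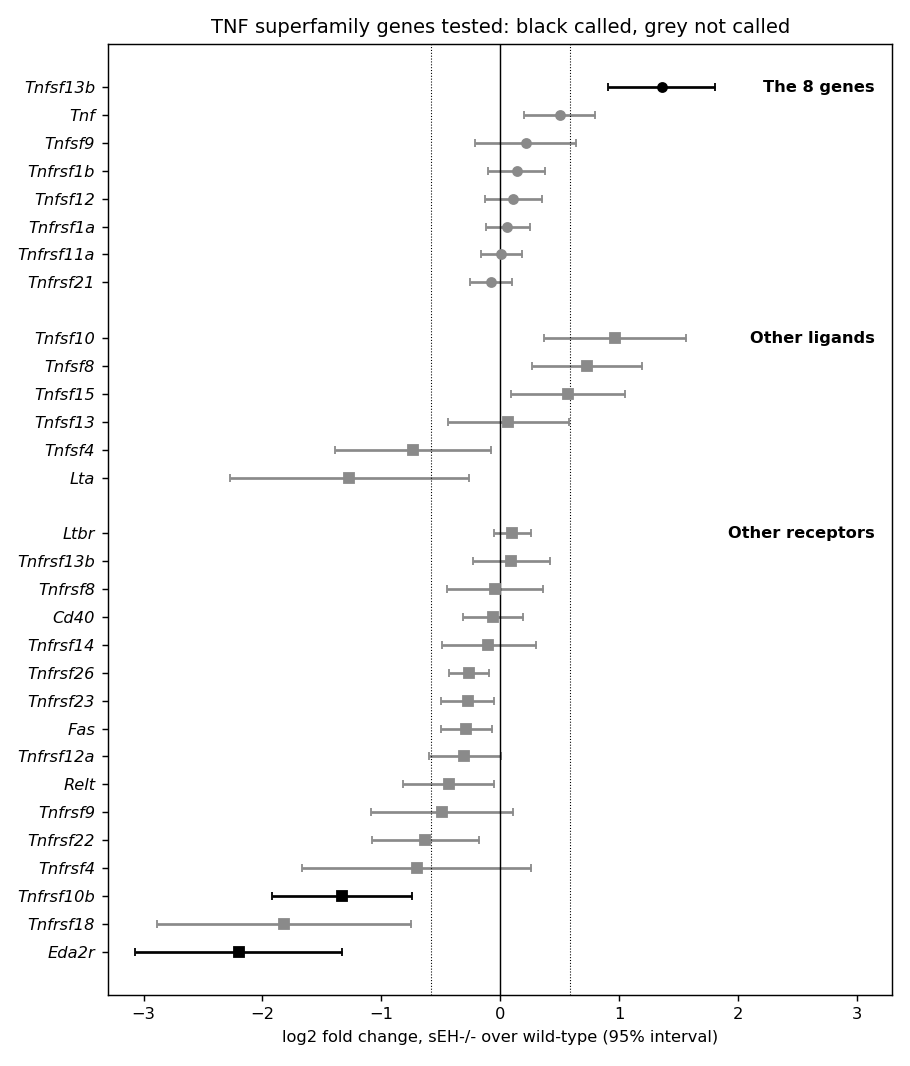
The log2 fold change (sEH-/- over wild-type) of the 8 genes (circles) and of the 6 other ligands and 16 other receptors tested (squares) is plotted with its 95% interval, in black where called and in grey where not, and dotted lines mark the threshold of 1.5-fold in either direction. Of the called genes, *Tnfsf13b* lies to the right of the dotted lines and *Tnfrsf10b* and *Eda2r* lie to the left. Of those not called, *Tnfsf10* and *Tnfsf8* also lie to the right, and *Tnfrsf18*, *Lta*, *Tnfsf4*, *Tnfrsf4* and *Tnfrsf22* to the left. Values below 0 are seen in 14 of the 16 other receptors.

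Behind the receptors, 34 adaptors, kinases, ubiquitin enzymes and death effectors were tested, of which 2 were called higher, 1 was called lower and 31 were not called, where 1.51% and 1.10% of all tested genes were called higher and lower. *Map3k5*, which encodes the stress kinase ASK1, had 45.8, 77.9 and 56.1 CPM in sEH-/- and 32.1, 24.0 and 20.6 CPM in wild-type libraries (1.24 on the log2 scale, SE 0.21, edgeR adjusted p = 0.018). *Traf1*, an adaptor bound by TNFR2, rose by 0.60 on the log2 scale (SE 0.14, adjusted p = 0.046), close to both thresholds, and it lost its call in 9 of 18 alternatives. *Traf4*, a TRAF protein with roles outside TNF signalling, had 6.50, 3.03 and 4.41 CPM in sEH-/- and 9.01, 22.6 and 19.7 CPM in wild-type libraries (−1.87 on the log2 scale, SE 0.37, adjusted p = 0.029). Like *Col1a2*, *Traf4* was highest in wild-type replicates 2 and 3. Among the sEH-/- libraries, *Traf4* was lowest in replicate 2, where *Col1a2* was highest (6.05 CPM). Of the 6 stromal or endothelial markers tested, 4 had log2 fold changes above 0 and 2 below 0. Over all tested genes, the main axis of variation (first principal component, 49.4% of the variance) held wild-type replicates 2 and 3 at 33.96 and 24.56. It held sEH-/- replicate 2 at −38.6. The part of stromal cells in *Traf4* was not tested. *Map3k5*, *Traf1* and *Traf4* separated the genotypes. Of the 34 genes, 11 had all sEH-/- libraries above and 6 had them below all wild-type libraries, where 11.8% and 14.5% of all tested genes did. An unadjusted p under 0.05 in edgeR was found for 13 of the 34 and for 23.4% of all tested genes. None of the 3 called genes was called without wild-type replicate 2 or without wild-type replicate 3, and *Traf4* was not called without sEH-/- replicate 2 (adjusted p = 0.086 from edgeR). The most abundant of the list, *Cflar*, which encodes the caspase-8 inhibitor c-FLIP, and *Tab2*, a partner of the kinase TAK1, had log2 fold changes of 0.06 (interval −0.12 to 0.24, adjusted p = 0.69) and −0.04 (interval −0.20 to 0.11, adjusted p = 0.77).

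Among 7 genes for the proteases that release TNF and its receptors and for their regulators, edgeR called 0, where 2.61% of all tested genes were called, and DESeq2 and limma-voom called 0 as well. An unadjusted p under 0.05 was found for 3 of the 7 and for 23.4% of all tested genes. *Adam17*, the main sheddase of TNF, had 308, 361 and 357 CPM in sEH-/- and 313, 264 and 256 CPM in wild-type libraries. Wild-type replicate 1 lay above sEH-/- replicate 1, and the log2 fold change of 0.30 (interval 0.08 to 0.52, adjusted p = 0.10 from edgeR) stayed under the fold threshold. *Adam10* had a log2 fold change of 0.08 (interval −0.10 to 0.27, adjusted p = 0.60).

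**Figure D4:**
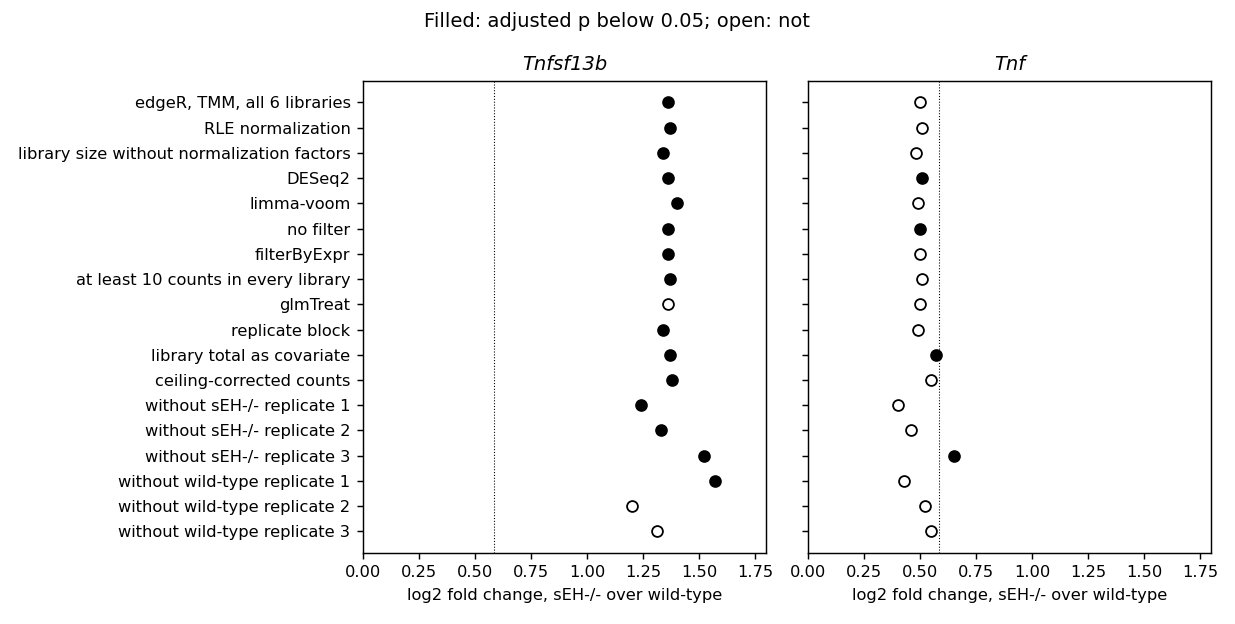
Log2 fold changes (horizontal axis, sEH-/- over wild-type) of *Tnfsf13b* and *Tnf* are plotted for each way of processing the counts (vertical axis), with filled points for an adjusted p below 0.05 and a dotted line at the threshold of 1.5-fold. *Tnfsf13b* stays between 1.20 and 1.57 and has open points for glmTreat and without wild-type replicate 2 or 3, and *Tnf* lies below the threshold except without sEH-/- replicate 3.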

How the data were processed

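The authors deposited 1 table of raw counts for 19309 genes in 6 libraries, 3 per genotype, with groups taken from the sample labels. According to the methods, trimmed reads were aligned by STAR (mm10), PCR duplicates and reads of ribosomal, mitochondrial or multiple origin were discarded, and featureCounts assigned the rest to exons with regard to strand. The authors' notes list Trimmomatic 0.39, STAR 2.7.7a, Picard 2.21.7 and featureCounts 1.6.5, whereas the methods name other versions of STAR, Picard and featureCounts.

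Counts were analysed with R 4.3.3 and edgeR 4.0.16 (TMM, glmQLFit, glmQLFTest, no covariates, 2-sided), after keeping the 13785 genes that averaged more than 5 counts, as in the study, which used DESeq2. Adjustment was over all tested genes. Standard errors are the log2 fold change over the square root of F, and 95% intervals use the t distribution of the fit. Exonic lengths came from GENCODE M21 (mm10), in which 19286 identifiers were found. Alternatives included DESeq2 1.42.0 and limma 3.58.1. The fit was tested on simulated data. Pairs of libraries within a genotype differed by more than sampling noise (chi-square over its degrees of freedom 2.24 to 4.89).

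The 8 genes, the lists and the rule for named genes (the 8, called genes and the 2 most abundant of each list, and profiles closest to a called gene) were chosen with earlier results of these data known.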

Additional observations from a re-analysis of the deposited data

How the results depend on the processing

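With single libraries left out, the number of called genes ranged from 6 to 625 of those tested (360 with all libraries), of the 8 genes from 0 to 2, of the other superfamily genes from 0 to 5, of the signalling genes from 0 to 3, of the processing genes from 0 to 0 and of the osteoclast genes from 0 to 3, and the log2 difference of the receptor ratio from 0.043 to 0.11. No processing gene was called with all libraries or with any single one left out. The other zeros came without wild-type replicate 2 or 3 and, for the other superfamily genes, also without sEH-/- replicate 2. The test against the fold threshold (glmTreat) called 10 genes, of which 0 were among the 8, 0 among the other superfamily genes, 0 among the signalling and 0 among the osteoclast genes. The library total as a covariate gave 171 called genes and no fold threshold gave 553. Other superfamily genes called numbered 5 with DESeq2 and 4 with no filter, against 2. Both of these settings called *Tnfrsf18*, which had a log2 fold change of −1.82 in the main fit (adjusted p = 0.06 from edgeR). The causes were not tested. The replicate block gave 234 called genes and kept the count for the 8 genes at 1. The deviations of libraries with the same number correlated at −0.082, −0.26 and −0.037, so that no pairing by number was seen. With 3 libraries per genotype, these correlations cannot exclude that libraries were processed in pairs. *Tnfrsf11a* changed sign at −0.01 with library sizes without normalization factors and ranged from −0.02 to 0.07 with libraries left out. Of 288 values of 16 genes under alternatives, 3 changed sign, 42 lost a call and 1 gained one.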

Other observations

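Beside *Tnfrsf11a*, which encodes RANK, a list of 12 genes switched on or used downstream of RANK in osteoclast formation was read from the same fit. Of the 10 tested, 2 were called higher and 1 lower in sEH-/- macrophages, where 1.51% and 1.10% of all tested genes were called higher and lower, and the median log2 fold change was 0.02. *Mmp9*, a gelatinase that activated macrophages and neutrophils also make, had 103, 49.8 and 41.0 CPM in sEH-/- and 14.9, 16.6 and 17.6 CPM in wild-type libraries (3.99-fold higher, SE 0.31 on the log2 scale, edgeR adjusted p = 0.016). *Dcstamp*, a membrane protein needed for the fusion of osteoclast precursors, had 24.3, 28.9 and 34.5 CPM in sEH-/- and 19.8, 16.1 and 15.8 CPM in wild-type libraries (0.76 on the log2 scale, SE 0.17, adjusted p = 0.036). *Itgb3*, an integrin subunit of osteoclasts and other cells, was lower in sEH-/- cells, at −1.47 on the log2 scale (SE 0.27, adjusted p = 0.025). The most abundant genes of the list were a proton pump subunit and an acid phosphatase, *Atp6v0d2* (log2 fold change −0.02, interval −0.29 to 0.25, adjusted p = 0.93) and *Acp5* (0.07, interval −0.20 to 0.33, adjusted p = 0.79). *Calcr*, the calcitonin receptor that marks mature osteoclasts, had at most 3 counts per library. None of the 3 called genes was called without wild-type replicate 2 or without wild-type replicate 3. *Dcstamp* was also not called with the replicate block (adjusted p = 0.07 from edgeR), without sEH-/- replicate 2 (0.094) or without sEH-/- replicate 3 (0.052), and *Itgb3* not with the library total as a covariate (0.051) or without sEH-/- replicate 2 (0.061). *Itgb3*, at 73.6, 155 and 100 CPM in wild-type libraries, was highest in wild-type replicates 2 and 3, as was the stromal marker *Col1a2*. Among the sEH-/- libraries, *Itgb3* was lowest in replicate 2 (26.0 CPM), where *Col1a2* was highest (6.05 CPM). Of the 6 stromal or endothelial markers tested, 4 had log2 fold changes above 0. The part of stromal cells in this was not tested.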
